A study of Mus musculus with 21 samples.

Results

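The septins are a family of GTP-binding cytoskeletal proteins, and 10 of their genes (*Sept1*, *Sept2*, *Sept3*, *Sept4*, *Sept5*, *Sept6*, *Sept7*, *Sept8*, *Sept9* and *Sept11*) were followed in mouse embryonic stem cells (mESCs) with altered cohesin regulators. The members were chosen by their symbols, as 10 of the 23412 gene rows in the count files, and the set was named for *Sept1* with its response in these data known. The levels and differences of *Sept1* are therefore a description with no test, and the other 9 members were tested. Poly-A RNA was sequenced from 21 libraries in 7 conditions of 3 libraries each. The conditions were WT siGLO, WT siPds5b, Pds5a-/- siGLO, Pds5b-/- siGLO, Pds5a-/- siPds5b, Pds5a-/- siStag1 and Pds5a-/- siStag2. Every library came from male v6.5 mESCs on gelatin, transfected with 50 nM siRNA and collected 48 h later, and siGLO is a control siRNA without a target gene. Each knockout was a single CRISPR clone, so that an effect of the clone and of the lost gene cannot be told apart. The study describes the libraries of WT and of each knockout as biological replicates.

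Septins assemble into hetero-oligomers that build filaments and rings at membranes, at the base of cilia and at the cleavage furrow of dividing cells. They fall into subgroups named SEPT2, SEPT3, SEPT6 and SEPT7 after one member each, and members of a subgroup can stand in for each other in an oligomer, while *Sept7* is the sole member of its subgroup. *Sept1*, *Sept2*, *Sept4* and *Sept5* are the SEPT2 subgroup, *Sept3* and *Sept9* belong to the SEPT3 subgroup, and *Sept6*, *Sept8* and *Sept11* belong to the SEPT6 subgroup. PDS5A and PDS5B are subunits that bind the cohesin ring, and STAG1 and STAG2 are alternative cohesin subunits.

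The members of a subgroup are related in sequence, so the stretch that encodes the nucleotide-binding P-loop is shown for the SEPT2 subgroup to let a reader see how far apart the transcripts are in a conserved place. Each is 24 coding bases of the principal GENCODE transcript (GRCm38/mm10), 5′ to 3′ on the strand of the gene, with capitals at the bases unlike *Sept2*. In every one the stretch is split by an intron.
Sept1: ggGgaGtcAggCctGggGaaatcC
Sept2: ggtgaatctggtctaggaaaatca
Sept4: ggAgaatctggtctGggTaaatcC
Sept5: ggtgaGtcCggCctGggGaaGtcC
The *Sept1* stretch runs over exons 2 and 3 of Sept1-202, between chr7:127218035-127218141 on the minus strand, and differed from *Sept2* at 7 of its bases. *Sept4* (chr11:87584014-87584421, plus strand) differed from *Sept2* at 4 bases and *Sept5* (chr16:18625233-18625345, minus strand) at 7. Over whole transcripts, the longest run that *Sept1* shared exactly with another septin was 20 bases (with *Sept3*), against 41 bases between *Sept4* and *Sept5* and 55 bases between *Sept2* and *Sept7*. No septin shared a run of 75 bases with another septin symbol. *Sept7* and *Sept11* shared such runs with 105 and 38 other genes, so their counts are less certain. *Sept5* contains the whole of *Gp1bb* (1902 exonic bases, same strand), a gene with 0 to 10 counts in every library, and a second gene ID of the same symbol overlaps *Sept2* by 3335 exonic bases on the same strand. How reads of these shared parts were assigned is not given in the sources used here, so the levels of *Sept5* and *Sept2* are uncertain to that extent.

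The total count per library was 17311090 to 23989198. The siRNA targets followed the labels: *Pds5b* was at 112 ± 8.94 CPM (mean ± SD, n = 3) in WT siGLO, 39.2 ± 4.02 in WT siPds5b, 45.6 ± 8.53 in Pds5a-/- siPds5b and 13.9 ± 1.87 in Pds5b-/- siGLO. *Stag1* was at 29.0 ± 3.01 CPM after siStag1 against 123 ± 5.96 in Pds5a-/- siGLO, and *Stag2* at 44.2 ± 3.52 after siStag2 against 164 ± 15.9. *Pds5a* was at 216 ± 25.2 CPM in Pds5a-/- siGLO against 255 ± 14.9 in WT siGLO, and its transcript count does not check a small exonic deletion. CPM denotes counts divided by library size after TMM scaling, a normalization for library composition. The 8 mESC markers were all present in every condition. Their summed level was 5369 to 5508 CPM in WT siGLO, 4230 to 4553 in Pds5a-/- siGLO, 3616 to 4222 in Pds5b-/- siGLO and 3054 to 3216 in Pds5a-/- siPds5b. It was 3786 to 3853 in Pds5a-/- siStag1 and 2763 to 3213 in Pds5a-/- siStag2. Against WT siGLO, Pds5a-/- siGLO, Pds5b-/- siGLO and Pds5a-/- siPds5b had 5, 6 and 7 of the 8 markers called lower (edgeR, adjusted p under 0.01). Of all genes tested, 17.8%, 18.2% and 32% were called there in either direction. In bulk RNA, fewer cells with a transcript and less of it per cell cannot be told apart.

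*Sept1* (ENSMUSG00000000486) lies on chromosome 7 from 127214447 to 127233130 on the minus strand, and its principal transcript Sept1-202 has 11 exons and 1486 bases. It was lower in every knockout condition than in either WT condition, and lowest where both PDS5 proteins were targeted. In WT siGLO the 3 libraries had 158, 133 and 138 CPM of *Sept1*, and in WT siPds5b they had 175, 143 and 149 CPM. The WT conditions overlapped. In Pds5a-/- siGLO the level was 72.6, 72.9 and 66.2 CPM, and in Pds5b-/- siGLO it was 47.6, 45.1 and 46.4 CPM. Neither knockout overlapped with WT or with the other knockout. In Pds5a-/- siPds5b the level was 27.1, 26.7 and 29.0 CPM, below every library of the other 6 conditions. After siStag1 in Pds5a-/- mESCs it was 42.3, 47.9 and 50.4 CPM, and after siStag2 35.1, 38.5 and 39.1 CPM. From highest to lowest mean the order was WT siPds5b, WT siGLO, Pds5a-/- siGLO, Pds5a-/- siStag1, Pds5b-/- siGLO, Pds5a-/- siStag2 and Pds5a-/- siPds5b, and the neighbours in this order that overlapped were the WT pair and the pair of Pds5a-/- siStag1 and Pds5b-/- siGLO.

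**Figure D1:**
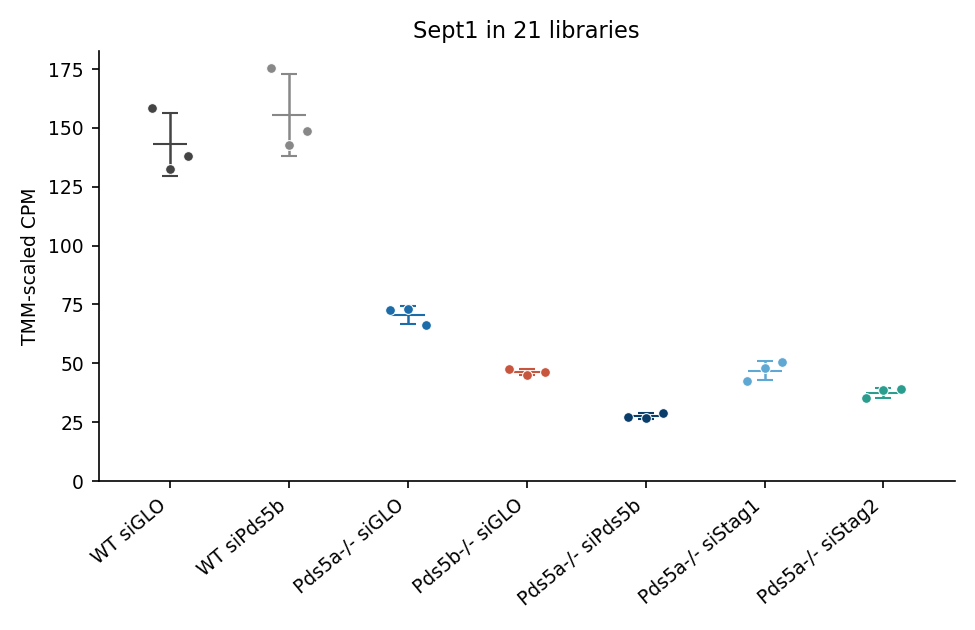
TMM-scaled CPM of *Sept1* (y axis) in the 7 conditions (x axis), with a point for each library (replicates 1 to 3 from left to right), a bar at the mean and whiskers of 1 SD (n = 3). The Pds5a-/- siPds5b libraries sit at 26.7 to 29.0 CPM and the WT siGLO libraries at 133 to 158 CPM.

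As differences, the log2 fold change of *Sept1* against WT siGLO was -1.02 ± 0.08 (SE) in Pds5a-/- siGLO, which is 49.4% of the WT level, -1.62 ± 0.09 in Pds5b-/- siGLO (32.4%) and -2.37 ± 0.09 in Pds5a-/- siPds5b (19.3%). The same siPds5b gave 0.12 ± 0.08 in WT cells and -1.36 ± 0.09 in Pds5a-/- mESCs, and the difference between those effects was -1.48 ± 0.12. Within Pds5a-/- mESCs, siStag1 gave -0.59 ± 0.09 and siStag2 gave -0.91 ± 0.09, which is 66.4% and 53.2% of the siGLO level. Several of these differences share control libraries, and they are set side by side without a comparison between them.

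Among the other 9 septins, all of which passed the filter on low counts, 3 were called in Pds5a-/- siGLO against WT siGLO, where 17.8% of the 14963 tested genes were called (edgeR quasi-likelihood test, adjusted p under 0.01 over all genes). All 3 rose: *Sept3*, *Sept4* and *Sept5*. *Sept10*, a septin outside the listed members, was lower there and is described below. The median log2 fold change of the 9 was 0.20, against 0.00 over all genes tested. The ubiquitous *Sept2*, *Sept7*, *Sept9* and *Sept11* were between -0.09 and 0.20 on the log2 scale, and none of them was called.

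*Sept4*, a SEPT2-subgroup septin known from the sperm tail annulus and from an isoform that promotes apoptosis, had the largest fold change of the 10. It was at 2.08, 1.65 and 1.96 CPM in WT siGLO and at 5.54, 23.5 and 24.8 CPM in Pds5a-/- siGLO. All libraries of the knockout were above those of WT, but replicate 1 was far below its partners. The log2 fold change was 3.23 ± 0.64 (adjusted p = 0.001587), and it was not called when only these conditions were fitted (adjusted p = 0.01788). In Pds5a-/- siPds5b the libraries had 10.3, 25.5 and 25.7 CPM of *Sept4*, in siStag1 3.62, 10.4 and 15.4 CPM, and in siStag2 10.3, 11.98 and 16.4 CPM. Replicate 1 was the lowest in each of these conditions too, and in Pds5b-/- siGLO, where the level was 1.86, 4.02 and 5.68 CPM and overlapped with WT. Over all tested genes, replicate 1 also stood apart in Pds5a-/- siGLO. The chi-square per gene between 2 libraries was 20.4 and 23.1 with it, against 8.52 between replicates 2 and 3. The same order held in every condition except Pds5a-/- siStag2 (18.5 and 19.9 against 22.7). The rise of *Sept4* in Pds5a-/- siPds5b against WT siGLO was 3.42 ± 0.64 (adjusted p = 0.0005204).

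*Sept5*, a septin of the same subgroup best known from nerve terminals, where it binds syntaxin, was low throughout, with 11 to 128 counts per library. In WT siGLO the libraries had 0.477, 1.53 and 1.25 CPM of *Sept5*, in Pds5a-/- siGLO 1.85, 3.12 and 3.36 CPM, and in Pds5a-/- siPds5b 3.05, 4.76 and 6.44 CPM. No library of these mutant conditions overlapped with WT siGLO. The log2 fold change was 1.38 ± 0.37 in Pds5a-/- siGLO (adjusted p = 0.00691) and 2.14 ± 0.36 in Pds5a-/- siPds5b (adjusted p = 4.132e-05). The first of these rested on single libraries, since without WT siGLO replicate 1 or 3 the adjusted p was 0.05081 or 0.01618, and without Pds5a-/- siGLO replicate 2 or 3 it was 0.02979 or 0.03571. In Pds5b-/- siGLO *Sept5* was at 2.24, 1.26 and 1.03 CPM, overlapping with WT.

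*Sept3*, a SEPT3-subgroup septin enriched in neurons, was at 15.96, 14.9 and 15.4 CPM in WT siGLO. It was at 24.6, 24.9 and 27.1 CPM in Pds5a-/- siGLO and at 23.2, 24.05 and 21.6 CPM in Pds5b-/- siGLO. Both knockouts lay above WT in every library. The log2 fold change of *Sept3* was 0.72 ± 0.12 in Pds5a-/- siGLO (adjusted p = 4.69e-05) and 0.57 ± 0.12 in Pds5b-/- siGLO (adjusted p = 0.0006659). *Sept3* was the only 1 of the 9 tested members called in Pds5b-/- siGLO, where 18.2% of all genes were called, and the 9 members had a median log2 fold change of -0.05. Its rise in Pds5a-/- siPds5b (22.5, 18.3 and 23.7 CPM) was 0.48 ± 0.12 (adjusted p = 0.001651). That call was lost without WT siGLO replicate 2 (adjusted p = 0.01001), Pds5a-/- siPds5b replicate 1 (0.01076) or Pds5a-/- siPds5b replicate 3 (0.01574).

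**Figure D2:**
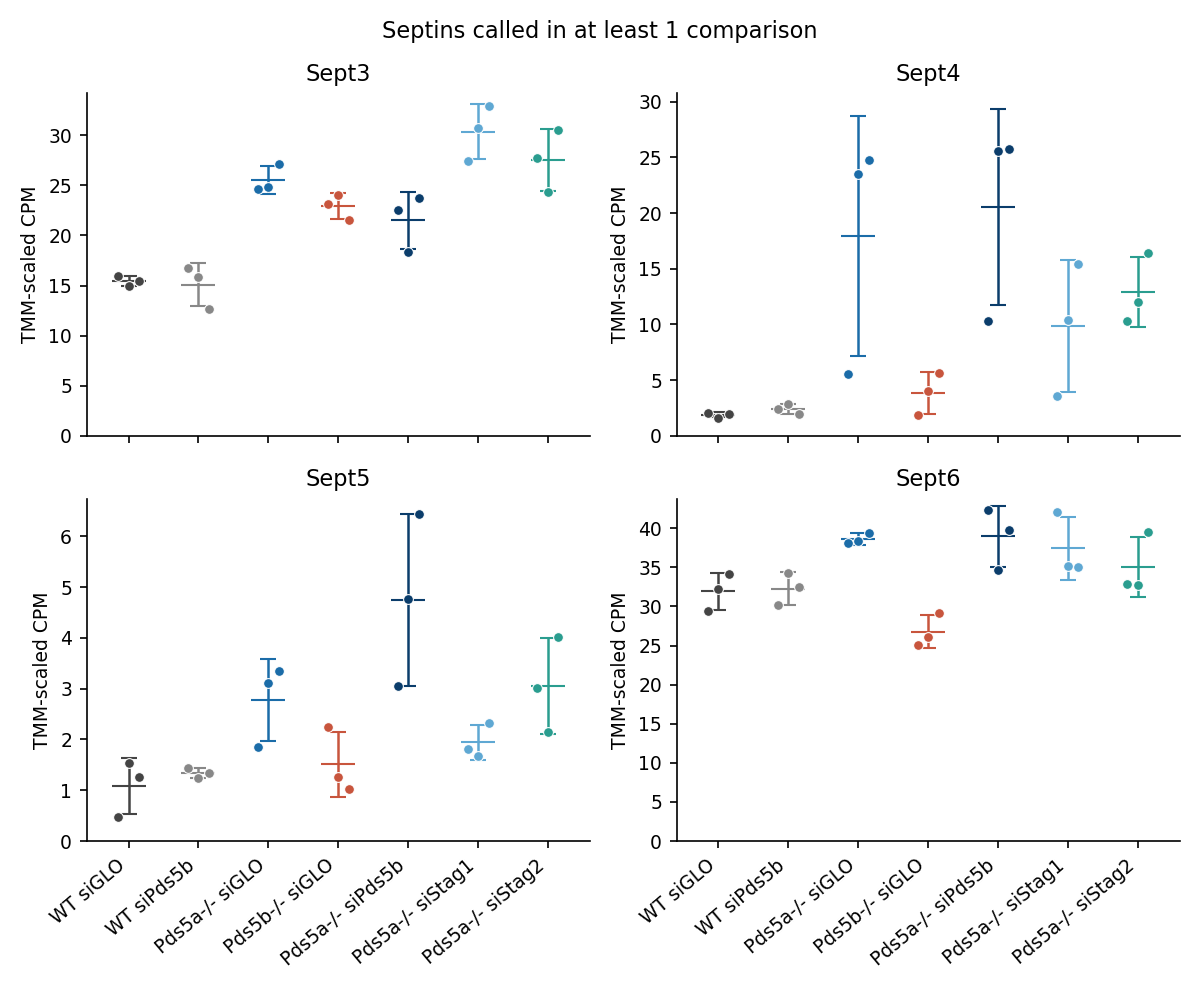
TMM-scaled CPM (y axis) of *Sept3*, *Sept4*, *Sept5* and *Sept6* in the 7 conditions (x axis), with a point for each library (replicates 1 to 3 from left to right), a bar at the mean and whiskers of 1 SD (n = 3). *Sept4* has the widest spread, from 5.54 to 24.8 CPM within Pds5a-/- siGLO.

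Since *Sept3* and *Sept5* are known from neurons, the 8 neural markers were read beside them. Their summed level was 173 to 204 CPM in WT siGLO, 124 to 144 in Pds5a-/- siGLO, 184 to 198 in Pds5b-/- siGLO and 107 to 117 in Pds5a-/- siPds5b. Of the 7 neural markers tested, 1 rose and 2 fell in Pds5a-/- siGLO, 3 rose in Pds5b-/- siGLO, and 2 rose and 3 fell in Pds5a-/- siPds5b. The shares of all genes called in these conditions were 17.8%, 18.2% and 32%. *Syp*, which encodes the synaptic vesicle protein synaptophysin, rose from 2.57 ± 0.36 CPM in WT siGLO to 9.94 ± 0.82 in Pds5a-/- siGLO, 5.31 ± 1.73 in Pds5b-/- siGLO and 11.3 ± 0.73 in Pds5a-/- siPds5b. *Map2*, of dendrites, rose in Pds5a-/- siPds5b from 6.54 ± 0.54 to 10.5 ± 0.76 CPM. *Nes* and *Sox1*, of neural progenitors, fell in Pds5a-/- siGLO by log2 fold changes of -0.96 ± 0.19 and -1.28 ± 0.23. In Pds5a-/- siPds5b *Tubb3*, *Nes* and *Sox1* fell, by -0.83 ± 0.11, -1.19 ± 0.19 and -1.47 ± 0.23. By contrast, *Sox1* and *Pax6* rose in Pds5b-/- siGLO, by 1.43 ± 0.21 and 2.20 ± 0.28. *Dcx*, a marker of immature neurons, was between 0.05 and 0.16 CPM in the mean of every condition.

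SEPT1 is known from lymphocytes, and of 7 blood and lymphoid markers with a row in the files 3 or 4 were under 1 CPM in every condition. Their sum was 13.9 to 16.3 CPM in WT siGLO, 15.4 to 16.2 in Pds5b-/- siGLO, 21.8 to 22.8 in Pds5a-/- siGLO and 24.3 to 25.2 in Pds5a-/- siPds5b, the last pair without overlap with WT. Of the 4 tested, 2 rose and 1 fell in Pds5a-/- siGLO and likewise in Pds5a-/- siPds5b, where 17.8% and 32% of all genes were called. *Lcp1*, an actin-bundling protein of leukocytes, rose from 0.937 ± 0.077 CPM in WT siGLO to 4.06 ± 0.32 and 6.11 ± 0.81, and *Coro1a* rose from 7.17 ± 1.01 to 13.6 ± 1.48 and 15.5 ± 0.63. *Itgal* fell from 5.18 ± 0.46 CPM to 2.95 ± 0.70 in Pds5a-/- siGLO and 1.40 ± 0.57 in Pds5a-/- siPds5b. *Ptprc*, the defining marker CD45, was at most 0.288 CPM in the mean of any condition. The fibroblast markers, of feeder cells, summed to 62.1 to 81.7 CPM in WT siGLO, 93.6 to 119 in WT siPds5b, 33.2 to 78.4 in Pds5a-/- siGLO, 27.8 to 33.4 in Pds5b-/- siGLO and 37.0 to 74.0 in Pds5a-/- siPds5b. Of the 6 tested, 2 fell in Pds5b-/- siGLO, with a median log2 fold change of -1.25, and 1 fell in Pds5a-/- siPds5b, beside 18.2% and 32% of all genes called. The part of such cells in the septin levels was not tested.

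The knockouts were also compared with each other, where 19.2% of all genes were called. *Sept6*, a SEPT6-subgroup septin on the X chromosome, was the member called: it was at 38.1, 38.4 and 39.4 CPM in Pds5a-/- siGLO and at 25.0, 26.1 and 29.1 CPM in Pds5b-/- siGLO. The groups did not overlap, and *Sept6* was higher in Pds5a-/- siGLO by a log2 fold change of 0.53 ± 0.10 (adjusted p = 0.0003011). In WT siGLO it was between them, at 29.4, 32.2 and 34.2 CPM, and neither knockout passed the threshold against WT (adjusted p = 0.03861 and 0.05481). *Sept4* was higher in Pds5a-/- siGLO by 2.21 ± 0.59 with an adjusted p of 0.01068, just outside the threshold. *Sept1* was higher there by 0.61 ± 0.09, as a description.

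In Pds5a-/- siPds5b against WT siGLO, 32% of all genes were called, and 3 of the 9 members (*Sept3*, *Sept4* and *Sept5*) rose. The median log2 fold change of the 9 members was 0.14. *Sept8*, of the SEPT6 subgroup, was at 20.4, 27.5 and 25.6 CPM against 27.1, 36.1 and 33.0 CPM in WT siGLO, which is a log2 fold change of -0.39 ± 0.16 that did not pass the threshold (adjusted p = 0.04634). *Sept2*, *Sept7*, *Sept9* and *Sept11* were between -0.06 and 0.14 on the log2 scale.

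None of the 9 members was called after an siRNA within a genotype, by edgeR, by edgeR with the replicate number as a block, or by DESeq2. The shares of all genes and the member counts below are from the fit without that block, which called fewer genes in each of these comparisons. For siPds5b in WT cells, 0.00668% of all genes were called, and 0 members and 4.22% of all genes had an unadjusted p under 0.05. For siPds5b in Pds5a-/- mESCs the share of all genes called was 7.59%. At an unadjusted p under 0.05 there were 3 members (*Sept3*, *Sept5* and *Sept7*), against 29.3% of all genes. *Sept3* was lower there by -0.25 ± 0.11 and *Sept5* higher by 0.77 ± 0.32, with adjusted p of 0.1487 and 0.1136. For siStag1 the share of all genes called was 0.0936%, and 2 members and 10.7% of all genes had an unadjusted p under 0.05. For siStag2 it was 2.24%, with 0 members and 25.3% of all genes at that unadjusted p. For siStag2 against siStag1 it was 0.394%, with 2 members and 19.9% of all genes, and *Sept1* was lower after siStag2 by -0.32 ± 0.09. In the interaction of Pds5a genotype and siPds5b, 1.48% of all genes were called, and 0 members and 17.3% of all genes had an unadjusted p under 0.05. The interaction of *Sept2* was 0.00 ± 0.08, that of *Sept7* 0.14 ± 0.09 and that of *Sept4* -0.15 ± 0.91, so that only large effects on *Sept4* were detectable.

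**Figure D3:**
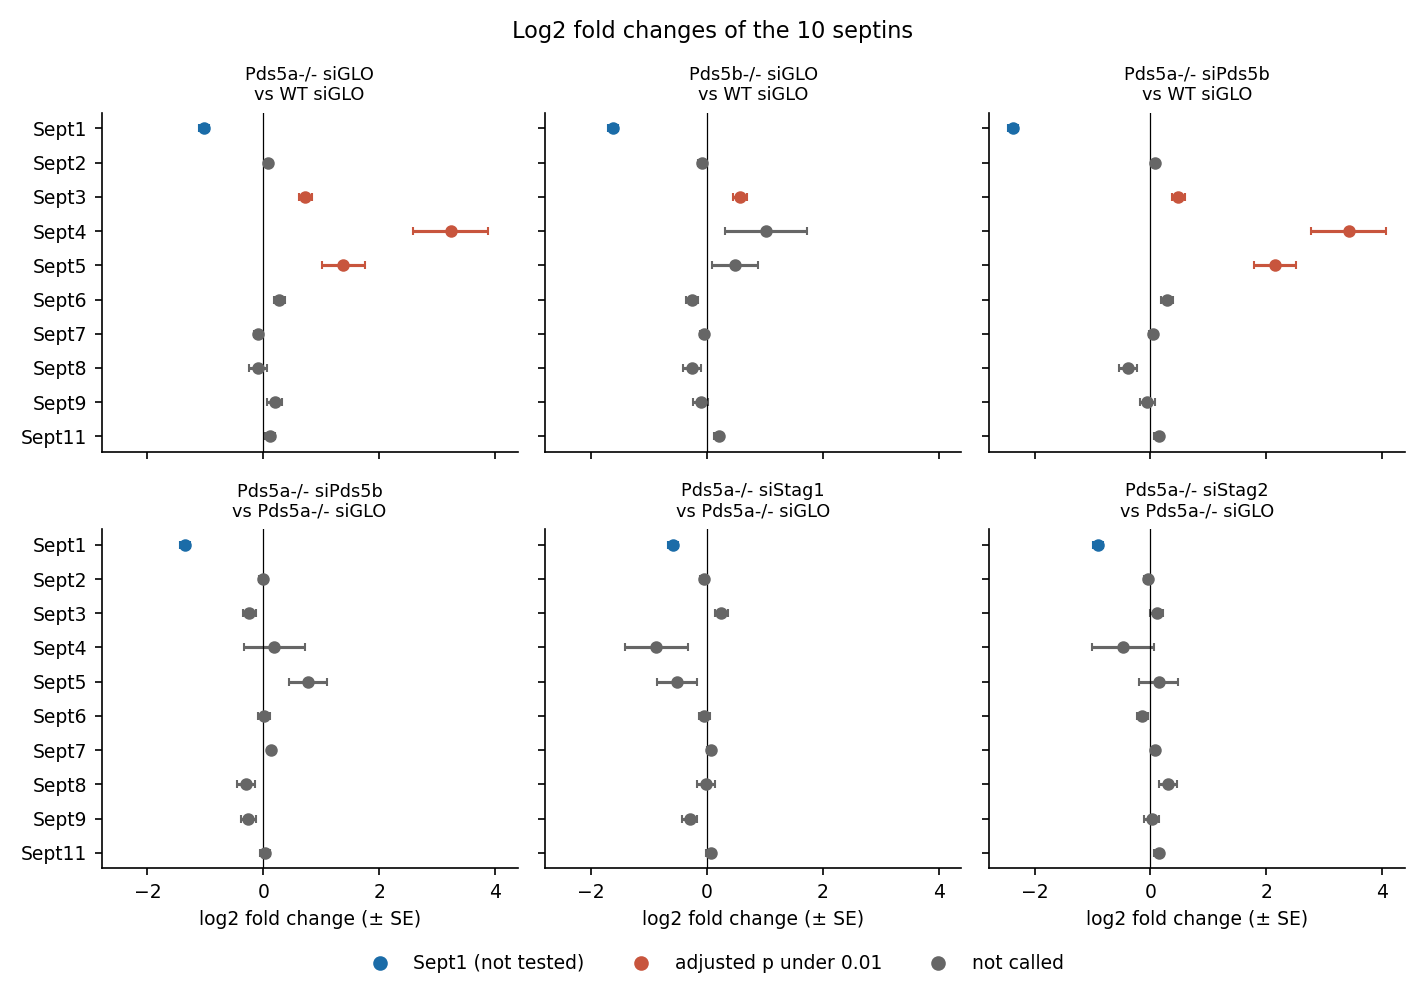
Log2 fold change (x axis, whiskers of 1 SE) of the 10 septins (y axis) in 6 comparisons, with *Sept1* in blue as a description, members called at an adjusted p under 0.01 in red and the others in grey. *Sept1* lies left of 0 in all 6 panels, from -0.59 to -2.37, and *Sept2* lies within 0.1 of 0 in each.

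Levels were compared between genes as CPM per kb of the principal transcript. The order of genes depends on this length. All annotated exons of *Sept7* sum to 11.631 kb, against 2.516 kb for its principal transcript, and those of *Sept1* to 2.763 kb against 1.486 kb. In WT siGLO, *Sept2* was at 103 ± 3.83 CPM per kb, *Sept1* at 96.2 ± 9.09, *Sept7* at 91.8 ± 2.11, *Sept11* at 60.8 ± 3.37 and *Sept9* at 46.1 ± 1.80. *Sept6* was at 9.24 ± 0.69, *Sept8* at 7.03 ± 1.01, *Sept3* at 3.09 ± 0.10, *Sept4* at 1.10 ± 0.13 and *Sept5* at 0.508 ± 0.256. In WT siGLO the means of *Sept1* and *Sept2* differed by less than the SD of *Sept1*, whereas in Pds5a-/- siPds5b *Sept1* was at 18.6 ± 0.81 CPM per kb and *Sept2* at 108 ± 2.21.

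As a share of the summed CPM per kb of *Sept1*, *Sept2*, *Sept4* and *Sept5*, *Sept1* made up 48.0% ± 1.54 (SD, n = 3) in WT siGLO, 28.4% ± 2.91 in Pds5a-/- siGLO, 23.96% ± 0.42 in Pds5b-/- siGLO and 13.2% ± 0.71 in Pds5a-/- siPds5b. The share of *Sept4* went from 0.548% ± 0.038 in WT siGLO to 6.05% ± 3.47 in Pds5a-/- siGLO and 8.37% ± 3.36 in Pds5a-/- siPds5b. That of *Sept5* was 0.259% ± 0.141, 0.763% ± 0.186 and 1.57% ± 0.519 in the same conditions. The CPM per kb summed over all septin rows was 441 ± 11.9 in WT siGLO, 406 ± 27.1 in Pds5a-/- siGLO, 364 ± 12.3 in Pds5b-/- siGLO and 377 ± 13.9 in Pds5a-/- siPds5b. These shares follow from the levels above and were not tested.

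**Figure D4:**
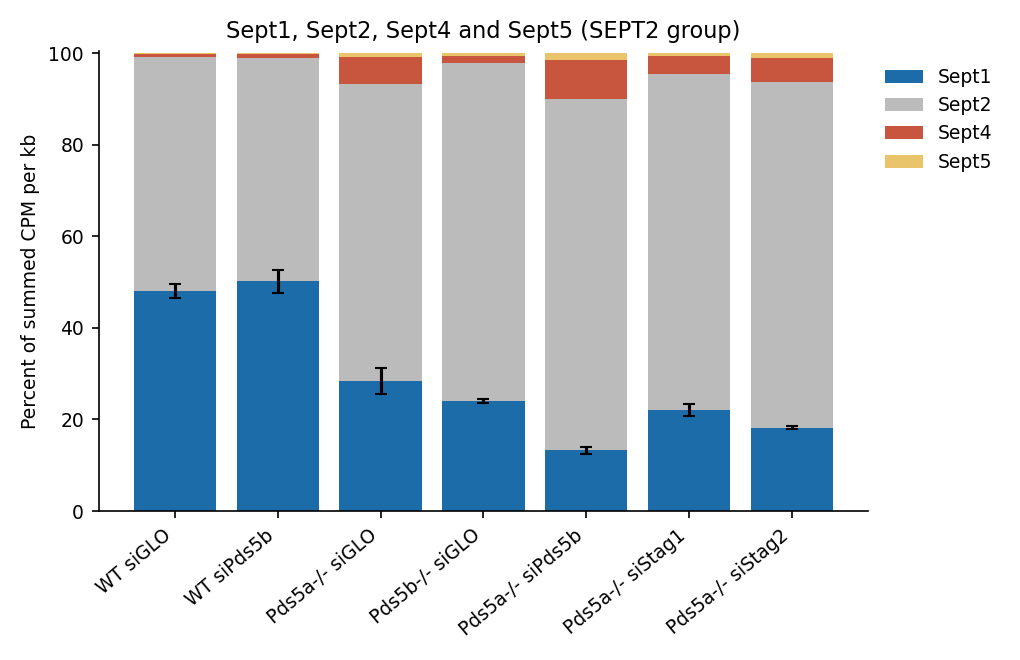
Mean share of *Sept1*, *Sept2*, *Sept4* and *Sept5* in their summed CPM per kb (y axis, percent) in the 7 conditions (x axis, n = 3), with whiskers of 1 SD on the *Sept1* share. The *Sept1* share is 48.0% in WT siGLO and 13.2% in Pds5a-/- siPds5b.

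The files hold 3 further septin rows outside the 10 members. *Sept12* and *Sept14* had at most 7 counts in any library. *Sept10*, of the SEPT6 subgroup, was singled out after its values were seen, so it is described with no test. It was at 53.0, 55.3 and 59.8 CPM in WT siGLO, 23.0, 25.8 and 26.6 CPM in Pds5a-/- siGLO and 30.7, 38.2 and 38.1 CPM in Pds5b-/- siGLO. It was lower in both knockouts, by log2 fold changes of -1.16 ± 0.10 and -0.65 ± 0.10. In contrast to *Sept1*, it was lower in the Pds5a-/- than in the Pds5b-/- clone, by -0.51 ± 0.10. After siPds5b in Pds5a-/- mESCs *Sept10* was at 25.3, 26.1 and 23.3 CPM, a log2 fold change of -0.01 ± 0.10.

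Of 30 genes listed as septin partners (regulators of cytokinesis, CDC42 and its effectors, kinases, myosins and adaptors), 27 had a row in the files and were tested. In Pds5a-/- siGLO 3 rose and 1 fell, in Pds5b-/- siGLO 2 rose and 2 fell, and in Pds5a-/- siPds5b 6 rose and 3 fell, with medians of 0.05, 0.03 and 0.06 on the log2 scale. These are 14.8%, 14.8% and 33.3% of the partners, near the 17.8%, 18.2% and 32% of all genes called. The counts are sensitive to single libraries: in Pds5a-/- siGLO the count of 4 was 2 without any single WT siGLO library or without Pds5a-/- siGLO replicate 2 or 3, and in Pds5b-/- siGLO it was 2 without WT siGLO replicate 2 or 3 or Pds5b-/- siGLO replicate 1. In Pds5b-/- siGLO it was 6 with the replicate block, with only the conditions compared and with DESeq2. Those 3 fits called 3316, 2554 and 3221 of all genes, against 2725 in the main fit. CDC42 effector proteins are also known as Borgs and bind septins. *Cdc42ep3* rose in Pds5a-/- siGLO from 6.77 ± 0.70 to 11.2 ± 0.94 CPM (0.73 ± 0.14, adjusted p = 0.0003853), and *Cdc42ep1* fell from 7.02 ± 1.26 to 3.22 ± 1.06 CPM (-1.11 ± 0.25, adjusted p = 0.001862). The adaptor *Sh3kbp1* rose there by 0.69 ± 0.18. In Pds5b-/- siGLO the adaptor *Sorbs2* rose by 0.99 ± 0.22 and the kinase *Rock2* by 0.32 ± 0.08. *Kif23*, a kinesin of the central spindle, fell there from 216 ± 10.1 to 168 ± 5.66 CPM, and *Cdc42ep4* fell by 0.43 on the log2 scale. In Pds5a-/- siPds5b against WT siGLO, *Sh3kbp1* rose by 1.28 ± 0.18, *Cdc42ep3* by 0.98 ± 0.14 and *Cdc42ep5* by 0.81 ± 0.17. *Cdc42ep1*, *Cdc42ep4* and *Kif23* had log2 fold changes of -1.44 ± 0.26, -0.52 ± 0.11 and -0.29 ± 0.06 and fell.

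Between the knockouts 3 partners were higher and 2 lower in Pds5a-/- siGLO, which is 18.5% of them against 19.2% of all genes. The count of 5 was 0 when only these conditions were fitted, 2 without Pds5a-/- siGLO replicate 2 or Pds5b-/- siGLO replicate 2, and 3 without Pds5b-/- siGLO replicate 1. These fits called 1722 to 1904 of all genes, against 2873 in the main fit. With DESeq2 the count was 8, and 3418 of all genes were called. *Cdc42ep3*, *Kif23* and the kinesin *Kif20a* were higher by 0.49 ± 0.14, 0.32 ± 0.06 and 0.30 ± 0.07, and *Sorbs2* and *Rock1* had -0.79 ± 0.22 and -0.30 ± 0.07. *Cdc42* itself, the small GTPase that acts through these effectors, fell after siStag1 from 391 ± 5.31 to 296 ± 15.7 CPM (-0.40 ± 0.07, adjusted p = 0.003198). This call was lost when only these conditions were fitted, without any single Pds5a-/- siGLO library, and without siStag1 replicate 2 or 3. *Cdc42* was higher after siStag2 than after siStag1 by 0.35 ± 0.07 (adjusted p = 0.007762), and that call was lost without any single library of either condition and when only these conditions were fitted.

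For siPds5b in WT cells, 0 partners were called by edgeR or by DESeq2, and 0 of the 27 had an unadjusted p under 0.05. For siPds5b in Pds5a-/- mESCs edgeR called 0 partners, or 1 with the replicate block, and DESeq2 called 4. Of all genes these fits called 1136, 1568 and 1500. For siStag2 against siGLO edgeR called 0, or 1 with the replicate block and 1 without Pds5a-/- siGLO replicate 3 or siStag2 replicate 2, and DESeq2 called 3. Of all genes edgeR called 335, or 677 with the block and 375 or 269 without those libraries, and DESeq2 called 770. In the interaction edgeR and DESeq2 called 0, and edgeR with the replicate block called 1, beside 222, 421 and 389 of all genes. At an unadjusted p under 0.05 there were 8, 11 and 4 partners in these last 3 comparisons, which is 29.6%, 40.7% and 14.8% of the list against 29.3%, 25.3% and 17.3% of all genes.

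The genes nearest to *Sept1* among those tested were *Cd2bp2*, *Tbc1d10b* and *Mylpf* on the side of lower coordinates and *Zfp553*, *Zfp771* and *Dctpp1* on the other. *Mylpf*, which encodes a myosin light chain of fast muscle, ends 148 bases from the end of *Sept1* and is transcribed towards it. It was at 83.5 ± 3.36 CPM in WT siGLO and 85.6 ± 4.53 in Pds5a-/- siGLO, where its log2 fold change was 0.04 ± 0.11 (adjusted p = 0.848). It fell in Pds5b-/- siGLO to 58.7 ± 10.2 CPM (-0.51 ± 0.11, adjusted p = 0.001423) and in Pds5a-/- siPds5b to 40.6 ± 3.13 CPM (-1.04 ± 0.11, adjusted p = 1.084e-07). Within Pds5a-/- mESCs *Mylpf* fell after siPds5b, siStag1 and siStag2, by log2 fold changes of -1.08 ± 0.11, -0.76 ± 0.11 and -1.17 ± 0.11. *Zfp553*, a zinc finger gene whose start overlaps the annotated start of the longest span of *Sept1* by 70 bases on the opposite strand, had -0.06 ± 0.08 in Pds5a-/- siGLO and 0.07 ± 0.08 in Pds5b-/- siGLO. It fell in Pds5a-/- siPds5b by -0.43 ± 0.08 (adjusted p = 0.0001662). *Zfp771* rose in Pds5a-/- siGLO by 0.59 ± 0.12 (adjusted p = 0.0004592) and in Pds5a-/- siPds5b by 0.45 ± 0.12 (adjusted p = 0.003059). *Cd2bp2*, *Tbc1d10b* and *Dctpp1* were not called against WT siGLO in these 3 conditions.

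**Figure D5:**
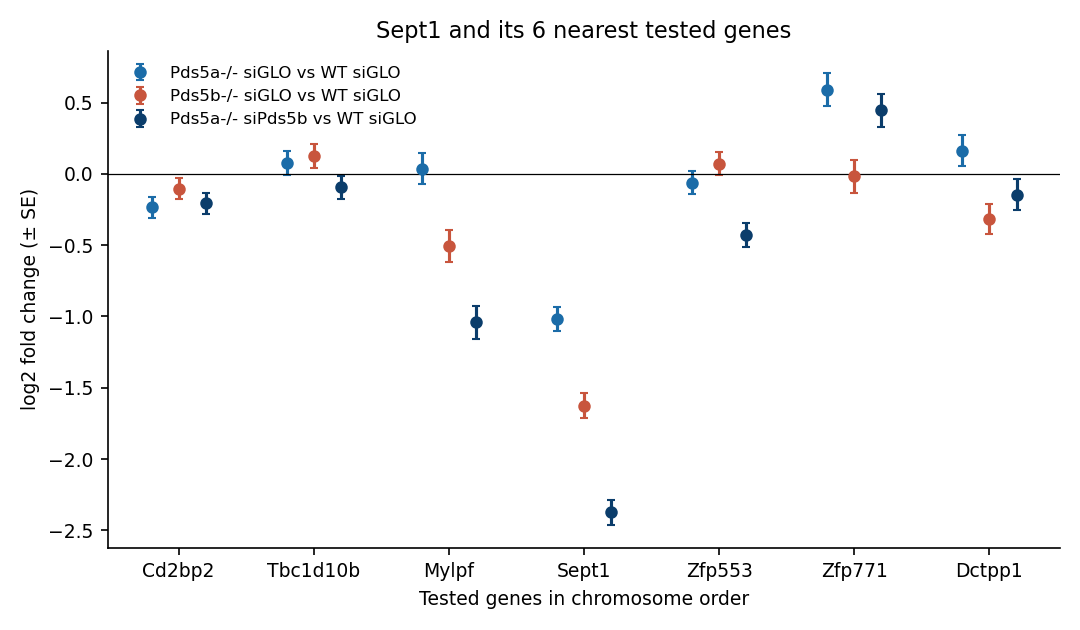
Log2 fold change against WT siGLO (y axis, whiskers of 1 SE) of *Sept1* and the 6 nearest tested genes in chromosome order (x axis, not to scale), with a colour for each of 3 conditions. *Sept1* reaches -2.37 in Pds5a-/- siPds5b, and *Mylpf* -1.04.

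Over the 7 condition means of log2 CPM, the genes with the pattern most like that of *Sept1* among 14962 others were *Mdp1* (Pearson r = 0.997), *Rinl* (0.996), *Rpp25* (0.995), *Ddc* (0.995) and *Notum* (0.994). These are descriptions over 7 points, and 768 genes had an r over 0.9. *Mdp1* spanned a smaller range than *Sept1*, from 39.0 ± 1.19 CPM in WT siGLO to 29.9 ± 1.36 in Pds5a-/- siPds5b. Among septins, *Sept10* had an r of 0.85 with *Sept1* and *Sept11*, *Sept5*, *Sept4* and *Sept3* had -0.86, -0.79, -0.79 and -0.75.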

How the data were processed

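RNA-seq was measured in 21 mESC libraries. The authors aligned paired-end poly-A reads to mm10 with STAR and deposited raw counts per gene symbol, without normalization. The counting tool, annotation and use of strand are not given in the sources used here. DESeq2 is also named in the submitters' processing notes. Libraries were assigned to conditions from the labels.

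The 10 septins, the gene lists and the tests were chosen with earlier results of these data known. Named genes were all 10 members, the siRNA and knockout targets, up to 3 called partners with the largest change in each direction, the 5 genes most like *Sept1* and its 3 nearest tested genes on each side. A partner that this rule names is not reported here. Counts were tested with edgeR 4.0.16 in R 4.3.3, with the filter for enough counts by condition (14963 genes kept), TMM scaling and 1 robust quasi-likelihood model of 7 condition means. P-values were adjusted by Benjamini-Hochberg over all genes, and an adjusted p under 0.01 was a call. The SE is the size of the log2 fold change divided by the square root of F. P-values set a difference against the spread between libraries. The libraries of each knockout came from a single clone, so no spread between clones enters. Symbols were matched to GENCODE M21 (GRCm38/mm10) for position, length and sequence, and a second gene ID shares the symbol *Sept2*. RefSeq promoters were not used here. The fits were tested on simulated data.

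Same-numbered libraries deviated together (r over 0.1 in all 3 pairs) for siPds5b in WT and for each siRNA in Pds5a-/- mESCs. This was taken as pairing, and in these comparisons the replicate block changed no septin call. The block gave each replicate number an effect shared by all 7 conditions, so it also tied conditions where pairing was not taken. A block within each genotype only was not fitted. With the block the genes called went from 1 to 3 for siPds5b in WT and from 1136 to 1568 for siPds5b in Pds5a-/- mESCs. They went from 14 to 48 for siStag1, from 335 to 677 for siStag2 and from 222 to 389 for the interaction. Alternatives were RLE or library-size scaling, no filter or at least 10 counts in every library, DESeq2 1.42.0, an adjusted p under 0.05, only the conditions compared, the replicate block and leaving out each library. Figures were drawn with matplotlib 3.10.9 in Python 3.11.15. Depth of 17311090 to 23989198 counts leaves *Sept5* with as few as 11 counts.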

Additional observations from a re-analysis of the deposited data

How the results depend on the processing

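The number of the 9 tested septins called in Pds5a-/- siGLO against WT siGLO was 3, 1 when only these conditions were fitted, 4 at an adjusted p under 0.05, and 2 to 3 when single libraries were left out (*Sept5* lost in 4 of these fits). Of all genes, 2656 were called in the main fit, 1790 with only these conditions and 1763 to 2584 when single libraries were left out. The number of all genes at an adjusted p under 0.05 is not given for any comparison. Between the knockouts it was 1, and 2 with at least 10 counts in every library, with the replicate block and with DESeq2, 3 at an adjusted p under 0.05, and 1 to 2 when single libraries were left out (2 without Pds5a-/- siGLO replicate 1). Of all genes, 2873 were called in the main fit, 3552 with the block and 3418 with DESeq2. With at least 10 counts in every library 2742 of 12654 were called, and without Pds5a-/- siGLO replicate 1 it was 2608. The gene gained was *Sept4*, and at an adjusted p under 0.05 also *Sept2*. In Pds5a-/- siPds5b against WT siGLO it was 3, 4 with the replicate block, 5 at an adjusted p under 0.05, and 2 to 4 when single libraries were left out (*Sept3* lost in 3 of these fits). Of all genes, 4787 were called in the main fit, 5387 with the block and 3836 to 4505 when single libraries were left out. No called septin changed sign under any alternative. The differences of *Sept1* kept their direction in all alternatives, with -1.08 to -0.94 in Pds5a-/- siGLO, -1.67 to -1.53 in Pds5b-/- siGLO and -2.43 to -2.30 in Pds5a-/- siPds5b. With the replicate block, *Sept8* was also called in Pds5a-/- siPds5b against WT siGLO (-0.39, adjusted p = 0.006325). In that comparison, between the knockouts, between siStag2 and siStag1, and for Pds5a-/- and Pds5b-/- against WT, not every pair had an r over 0.1, so pairing was not taken. There 2, 2, 2, 4 and 5 of 6 libraries were most like their own number in the other condition. For Pds5a-/- and Pds5b-/- against WT the median r was 0.239 and 0.234, near the 0.236 of siStag2 against siGLO, so pairing there is unsettled. With the length of all annotated exons, an alternative chosen after seeing the data, the *Sept1* share of its subgroup was 51.1% in WT siGLO and 14.7% in Pds5a-/- siPds5b. The number of partners called between the knockouts was 5, and 10 with the replicate block, beside 2873 and 3552 of all genes. The causes of these shifts were not tested. Low counts limit *Sept5* and replicate spread limits *Sept4*.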
